A study of Mus musculus with 35 samples.

Results

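ETS transcription factors were followed at the RNA level in hematopoietic stem and progenitor cells (HSPCs) that lack JMJD1B, a histone demethylase encoded by Kdm3b. The 9 genes described are Erg, Fli1, Ets1, Ets2, Etv6, Elf1, Elf4, Elk3 and Gabpa. They were taken by name as ETS family members with roles in blood or blood vessels, and all 9 were among the 11982 gene names of the RNA table. A further 9 ETS genes of the table (Erf, Etv3, Etv5, Elf2, Elk1, Elk4, Spi1, Spib and Spic) served for comparison. The other mouse ETS genes Fev, Etv1, Etv2, Etv3l, Etv4, Elf3, Elf5, Ehf and Spdef were not analysed here.

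HSPCs came from bone marrow of wild-type (WT) and JMJD1B-/- mice, with 2 libraries of polyadenylated RNA for each genotype. The strain was given as 129P2xC57BL/6J for both genotypes, and no treatment was given for either. The knockout mice derive from embryonic stem cells of 129P2 background with a gene trap in the locus. The study names littermates of matched age for the HSPCs in which it mapped histone marks. It describes its mice in general as adult and of both sexes. For the RNA libraries the labels give neither age nor sex. The loss is constitutive, so the cells around the HSPCs lacked JMJD1B as well. Levels are in RPKM, read numbers scaled to the size of the library and to the length of the transcript, so that levels of different genes can be compared.

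The ETS domain is a winged helix-turn-helix fold that reads a GGAA core in DNA, and the flanking bases and partner proteins set which family member binds where. ERG, FLI1 and ETV6 are known for the maintenance of blood stem cells and for the formation of megakaryocytes, in which they work beside GATA, RUNX1 and TAL1 complexes. PU.1, encoded by Spi1, drives myeloid and B cell fates, ETS1 is abundant in lymphocytes, and GABPA serves genes of mitochondria and of basic metabolism.

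Promoters are shown for the members that carried the results below, with both GGAA and its reverse complement TTCC in capitals. Each window covers the 150 bases before an annotated transcription start, read 5′ to 3′ on the gene's strand, from the RefSeq annotation of assembly GRCm38.p6. The table of promoters held 7 of the 9 members by symbol and not Fli1 or Ets1. Erg is given at its outermost start and at the next one, since the windows differ in GGAA content, and Gabpa is given because it held the longer site CCGGAAG.
Erg, outermost start, chr16:95586594-95586743, minus strand: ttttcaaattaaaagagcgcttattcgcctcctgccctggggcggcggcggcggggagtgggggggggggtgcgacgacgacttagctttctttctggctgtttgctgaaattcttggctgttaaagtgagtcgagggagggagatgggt
Erg, next start, chr16:95530366-95530515, minus strand: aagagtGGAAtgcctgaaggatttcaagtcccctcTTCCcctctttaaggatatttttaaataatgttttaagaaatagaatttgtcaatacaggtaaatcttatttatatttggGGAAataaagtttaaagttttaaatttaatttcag
Etv6, chr6:134035550-134035699, plus strand: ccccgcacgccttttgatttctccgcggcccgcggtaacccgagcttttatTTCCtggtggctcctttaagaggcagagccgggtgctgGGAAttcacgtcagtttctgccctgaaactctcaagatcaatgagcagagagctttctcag
Elf1, outermost start, chr14:79481044-79481193, plus strand: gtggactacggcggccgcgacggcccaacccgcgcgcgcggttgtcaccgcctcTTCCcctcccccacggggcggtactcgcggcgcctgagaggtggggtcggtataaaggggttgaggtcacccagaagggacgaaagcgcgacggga
Elk3, chr10:93311160-93311309, minus strand: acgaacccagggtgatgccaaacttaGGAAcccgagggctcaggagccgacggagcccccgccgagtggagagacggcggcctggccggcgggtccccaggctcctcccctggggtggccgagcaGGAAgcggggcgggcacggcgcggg
Gabpa, chr16:84834974-84835123, plus strand: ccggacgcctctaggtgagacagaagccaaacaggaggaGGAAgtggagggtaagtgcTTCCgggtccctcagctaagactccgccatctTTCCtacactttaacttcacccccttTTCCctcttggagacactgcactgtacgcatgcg

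The 7 members had 11 annotated starts, and 9 of these 11 windows held GGAA on either strand. Of 32851 RefSeq promoter windows of the same length, 80.8% held GGAA on either strand, with a median of 2 cores, so the core was about as common before the members' starts as elsewhere. The outermost Erg window held 0 cores and the next one 3 cores. Gabpa held 4 cores, and its window was the 1 of 11 with CCGGAAG, a site found in 5.52% of all windows on either strand. CCGGAAG contains GGAA, so the searches overlap. A match of letters describes the sequence and shows no bound factor.

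The 4 libraries were checked before the members were compared. Kdm3b had 30.98 and 24.3 RPKM in WT replicates 1 and 2 and 3.996 and 4.63 RPKM in JMJD1B-/- replicates 1 and 2. The log2 difference was −2.65 (SE 0.24, adjusted p = 0.0314 with limma), and the adjusted p was 0.0614 with median-ratio scaling, 0.0991 with quantile normalization, 0.212 without a variance trend, 0.608 gene by gene, 0.796 without WT replicate 1 and 0.619 without WT replicate 2. The estimated depth was 6110000 reads in JMJD1B-/- replicate 1 and 17500000 to 24600000 reads elsewhere, so JMJD1B-/- replicate 1 is the least precise library. Kit, the receptor of stem cell factor on HSPCs, had 51.6 to 92.7 RPKM in the 4 libraries, whereas Ly6a, the gene of the stem cell antigen Sca-1, had 0.629 to 2.96 RPKM. Xist, the RNA of the inactive X chromosome, stood at 331.6 RPKM in WT replicate 2, whereas none of the other 3 libraries exceeded 0.0510 RPKM. Xist RNA was thus high in a WT library and in neither JMJD1B-/- library, so the genotypes were not matched for it. The part of sex in the differences between genotypes was not tested.

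At the level of single genes, no ETS member differed between the genotypes past the test. Of the 9 members, 0 had an adjusted p under 0.05 with limma in either direction, against 0.0337% of 11863 genes called lower and 0.00843% called higher. At an unadjusted p under 0.05 the count of members was also 0 with limma, against 6.33% of all genes called lower and 3.81% called higher. The gene-by-gene equal-variance test gave 0 members after adjustment. Before adjustment it gave 1 member, Erg, as lower, beside 512 of 11863 genes lower and 348 higher. Limma gave 2 lower members before adjustment, Elf1 and Etv6, under median-ratio scaling, under quantile normalization and with a replicate block. Over all genes these settings gave 747, 714 and 914 lower. In the fit reported, adjusted p-values of the members with limma ranged from 0.493 to 0.973. With 2 libraries per genotype an exact permutation test of 1 gene cannot go below p = 0.333, and the labels do not say whether replicates came from separate animals, so p-values measure only the spread between these libraries.

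In direction, 7 of the 9 members had a negative log2 difference (JMJD1B-/- minus WT), beside 53% of all genes tested. The median of the 9 members was −0.30 against −0.025 over all genes tested. The median was the value of Ets1, whose mean RPKM was higher in JMJD1B-/- HSPCs, at 104.4% of WT. Without JMJD1B-/- replicate 2 the median was −0.18, and Ets1 and Elf4 were above 0. In 5 members (Erg, Fli1, Etv6, Elf1 and Elk3) the higher JMJD1B-/- library was still under the lower WT library, a pattern shown by 22.7% of all genes. The opposite pattern was seen in 0 members and in 20.1% of all genes. The count of 5 went to 3 under median-ratio scaling and under quantile normalization, where Fli1 and Elk3 overlapped while Erg, Etv6 and Elf1 did not. Under both of these scalings the opposite pattern was seen in 1 member, Ets2. Over all genes the lower and the opposite pattern were seen in 22.8% and 22.9% with median-ratio scaling. With quantile normalization these shares were 20.9% and 25%. In bulk RNA, fewer cells of a type and less RNA per cell cannot be told apart.

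**Figure D1:**
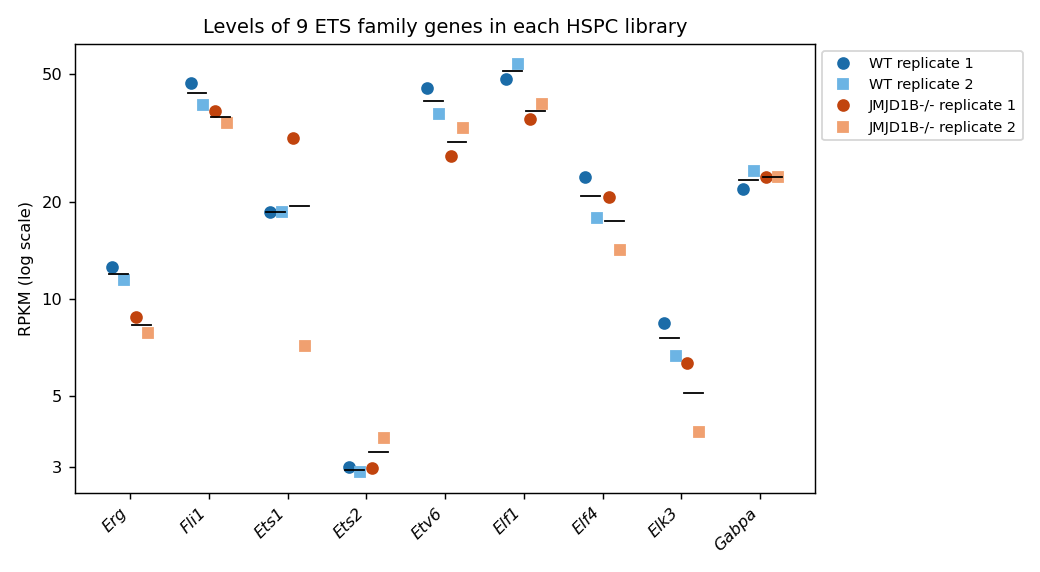
Levels of the 9 ETS members in RPKM on a log axis, with 1 point per library and a black line at the mean of the 2 libraries of a genotype. Erg, Fli1, Etv6, Elf1 and Elk3 lie lower in both JMJD1B-/- libraries than in both WT libraries, and Ets1 runs from 7.15 to 31.6 RPKM within the JMJD1B-/- genotype.

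ERG is required for the upkeep of definitive blood stem cells. Erg had 12.6 and 11.4 RPKM in WT replicates 1 and 2 and 8.80 and 7.84 RPKM in JMJD1B-/- replicates 1 and 2. Both JMJD1B-/- libraries were low, and the genotypes did not overlap. The mean was 11.997 ± 0.790 RPKM in WT and 8.32 ± 0.678 RPKM in JMJD1B-/- HSPCs (SD, n = 2 libraries each), or 69.4% of WT. On the log2 scale the difference was −0.52 (SE 0.23, 95% interval −1.06 to 0.01, adjusted p = 0.494 with limma). With any 1 library left out the difference ran from −0.61 to −0.44.

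FLI1 is the closest relative of ERG and activates genes of platelets. Fli1 had 46.9 and 40.1 RPKM in WT and 38.3 and 35.3 RPKM in JMJD1B-/- replicates 1 and 2, the order used from here on. Here too the JMJD1B-/- libraries were the lower ones, but the gap between the nearest libraries was small. The mean went from 43.5 ± 4.83 to 36.8 ± 2.09 RPKM (SD, n = 2), 84.5% of WT, with a log2 difference of −0.24 (SE 0.18, 95% interval −0.67 to 0.19, adjusted p = 0.687 with limma). Leaving out 1 library gave −0.35 to −0.13, the latter without WT replicate 1. As a ratio of levels, Erg to Fli1 was 0.268 and 0.285 in WT and 0.230 and 0.222 in JMJD1B-/- libraries, so Erg took the lower value relative to Fli1 in both knockout libraries.

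ETV6, also called TEL, is a repressor that adult blood stem cells need to persist. Etv6 had 45.1 and 37.4 RPKM in WT and 27.7 and 33.9 RPKM in JMJD1B-/- libraries. Its JMJD1B-/- replicate 1 was the lowest of the 4 libraries, and the genotypes did not overlap. The mean was 41.3 ± 5.43 RPKM in WT and 30.8 ± 4.402 RPKM in JMJD1B-/- HSPCs (SD, n = 2), 74.7% of WT. This was a log2 difference of −0.42 (SE 0.20, 95% interval −0.89 to 0.05, adjusted p = 0.536 with limma), and −0.27 to −0.57 with 1 library left out, the former without JMJD1B-/- replicate 1. The unadjusted p of Etv6, 0.0736 with limma, was 0.0451 under median-ratio scaling, 0.0389 under quantile normalization and 0.0479 with a replicate block. The adjusted p-values of these fits were 0.43, 0.412 and 0.393.

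The ELF factors form a subfamily of activators, of which ELF1 is broadly expressed in blood cells and ELF4 is known for the quiescence of stem cells and of T cells. Elf1 had 48.3 and 53.5 RPKM in WT and 36.2 and 40.4 RPKM in JMJD1B-/- libraries, the highest levels of any member in each genotype by mean. Both JMJD1B-/- libraries were below both WT libraries. The mean was 50.9 ± 3.71 RPKM in WT and 38.3 ± 2.96 RPKM in JMJD1B-/- HSPCs (SD, n = 2), 75.3% of WT, and the log2 difference was −0.41 (SE 0.18, 95% interval −0.83 to 0.01, adjusted p = 0.493 with limma). The unadjusted p of Elf1, 0.0542 with limma, was the lowest of the 9. With limma it was 0.0306 under median-ratio scaling, 0.0121 under quantile normalization and 0.0398 with a replicate block. The adjusted p-values of these fits were 0.414, 0.34 and 0.358.

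Elf4 had 23.9 and 17.8 RPKM in WT and 20.8 and 14.2 RPKM in JMJD1B-/- libraries. Replicate 1 was the higher library within each genotype, and the genotypes overlapped. The log2 difference was −0.26 (SE 0.26, 95% interval −0.88 to 0.35, adjusted p = 0.763 with limma), and it was 0.0084 without JMJD1B-/- replicate 2. Elf4 lies on the X chromosome, and WT replicate 2, the library with Xist RNA, had the lower of the WT values. The part of sex in the Elf4 values was not tested.

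ELK3, or NET, is a ternary complex factor that sits beside SRF and represses until it is phosphorylated. Elk3 had 8.42 and 6.66 RPKM in WT and 6.34 and 3.85 RPKM in JMJD1B-/- libraries. JMJD1B-/- replicate 2 was far below the rest, and JMJD1B-/- replicate 1 was just under WT replicate 2. The mean went from 7.54 ± 1.24 to 5.10 ± 1.76 RPKM (SD, n = 2), 67.6% of WT, with a log2 difference of −0.59 (SE 0.33, 95% interval −1.36 to 0.18, adjusted p = 0.588 with limma). This was the lowest percentage of WT among the 9 members, and the difference ran from −0.94 without JMJD1B-/- replicate 1 to −0.24 without JMJD1B-/- replicate 2.

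GABPA is the DNA-binding subunit of GABP, which gains its activation domain from a beta subunit encoded by Gabpb1 or Gabpb2. Gabpa had 21.9 and 25.0 RPKM in WT and 23.9 RPKM in each JMJD1B-/- library. The JMJD1B-/- values lay between the WT values, at 102.0% of the WT mean. The log2 difference was 0.03 with an interval of −0.41 to 0.48 (adjusted p = 0.973 with limma), so changes of that size in either direction were not detectable with these libraries.

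Ets2, a target of Ras signalling through MAP kinases, was the least expressed member. It had 2.998 and 2.90 RPKM in WT and 2.98 and 3.71 RPKM in JMJD1B-/- libraries. Only JMJD1B-/- replicate 2 was above the others, and the genotypes overlapped. Its log2 difference was 0.17 (SE 0.35, 95% interval −0.66 to 0.99, adjusted p = 0.9 with limma), and it was 0.32 without JMJD1B-/- replicate 1, 0.016 without JMJD1B-/- replicate 2 and 0.37 with quantile normalization. In JMJD1B-/- replicate 1 its level corresponded to about 18.2 reads per kilobase of transcript, the thinnest support of any member in any library.

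Ets1 had the same level in both WT libraries, 18.6 RPKM, and 31.6 and 7.15 RPKM in JMJD1B-/- replicates 1 and 2. The JMJD1B-/- libraries thus lay on opposite sides of WT and differed from each other 4.43-fold, while the means were 18.6 ± 0.00882 and 19.4 ± 17.3 RPKM (SD, n = 2). The log2 difference was −0.30 (SE 0.59, 95% interval −1.68 to 1.08, adjusted p = 0.893 with limma). Without JMJD1B-/- replicate 1 it was −1.37 (adjusted p = 0.00636 with limma), and without JMJD1B-/- replicate 2 it was 0.77 (adjusted p = 0.0544 with limma), so its direction rested on 1 library. With 1 JMJD1B-/- library left, these p-values assume that it varies as the WT pair and the other genes do, and the SD of Ets1 between the WT libraries was 0.00882 RPKM.

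Markers of T and NK cells followed the same library. Of 13 such markers 12 were listed and Cd4 was not analysed here, and 11 of the 12 were highest in JMJD1B-/- replicate 1. Their summed level was 31.4 and 46.1 RPKM in WT and 114 and 25.0 RPKM in JMJD1B-/- libraries, with no listed marker at 0 in any library, and 4 of the 12 were lowest in JMJD1B-/- replicate 2. Cd3g, a chain of the T cell receptor complex, had 0.444 and 0.474 RPKM in WT and 11.7 and 1.66 RPKM in JMJD1B-/- libraries. Cd3e, another chain of it, had 1.13 and 1.40 RPKM in WT and 7.98 and 2.32 RPKM in JMJD1B-/- libraries. The exception was Nkg7, a granule gene of cytotoxic cells, which had 14.0 and 15.3 RPKM in WT and 7.19 and 4.84 RPKM in JMJD1B-/- libraries. Without Nkg7 the sum was 17.4 and 30.7 RPKM in WT and 107 and 20.2 RPKM in JMJD1B-/- libraries, so that JMJD1B-/- replicate 2 lay within the WT values. The part of lymphoid cells in the Ets1 values was not tested.

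**Figure D2:**
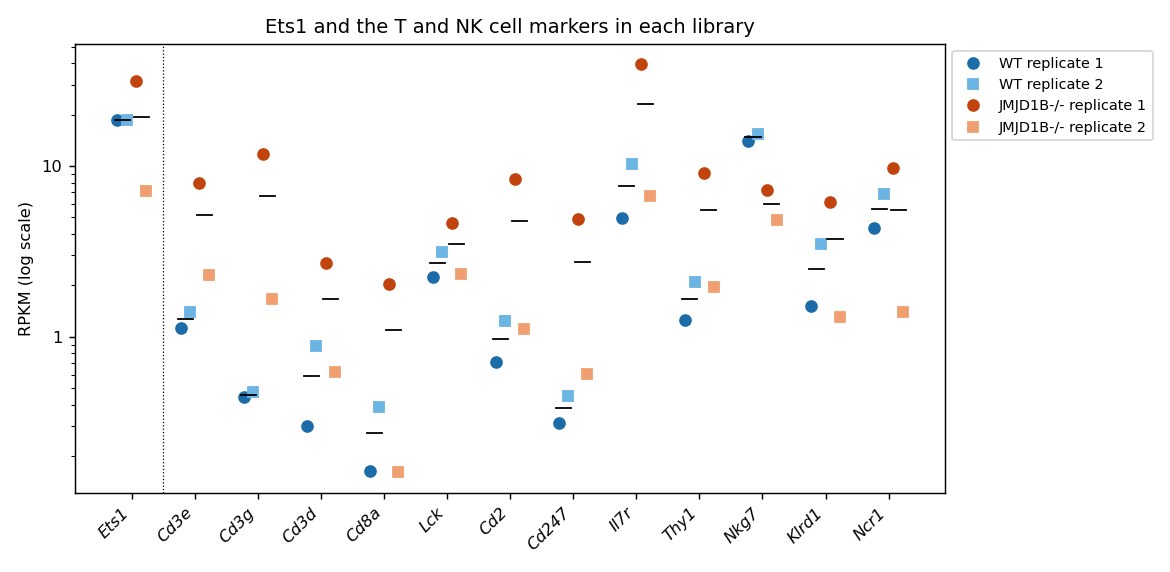
Ets1 (left of the dotted line) and 12 T and NK cell markers in RPKM on a log axis, 1 point per library, with a black line at each genotype's mean. JMJD1B-/- replicate 1 is the highest library for Ets1 and for 11 of the 12 markers, all but Nkg7.

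Among WT HSPCs the members covered a wide range of levels. Elf1 ranked first and exceeded 91.8% of listed genes, and Ets2 ranked last and exceeded 19.7% of them. Fli1 and Etv6 came next to Elf1 with ranges that overlapped each other. Gabpa, Elf4 and Ets1 followed, and neighbours among these also overlapped. Erg, Elk3 and Ets2 each had a separate range below, with Erg above 55.0% of listed genes. In JMJD1B-/- HSPCs the order by mean was Elf1, Fli1, Etv6, Gabpa, Ets1, Elf4, Erg, Elk3 and Ets2, where Elf1 and Fli1 overlapped, as did Gabpa with Ets1 and Ets1 with Elf4. The wide range of Ets1 also reached that of Etv6 and covered that of Erg, and in JMJD1B-/- replicate 2 Ets1 was below Erg.

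Erg and Ets2 are neighbours on chromosome 16, and Fli1 and Ets1 are neighbours on chromosome 9, with 0 other protein-coding genes between the members of each pair in the RefSeq annotation. The differences within each pair were not tested. On chromosome 16 the intervals of the log2 differences of Erg and Ets2, given above, overlapped. On chromosome 9 the ratio of Ets1 to Fli1 levels was 0.396 and 0.463 in WT and 0.827 and 0.202 in JMJD1B-/- libraries.

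The other ETS genes of the table did not pass the test either. Of 9 genes, 0 had an adjusted p under 0.05 and 0 an unadjusted p under 0.05 with limma, and adjusted p-values ran from 0.501 to 0.999. Their median log2 difference was −0.21, with 8 negative and 1 positive, while 53% of all genes were below 0. However, the median was −0.012 with quantile normalization, −0.11 without JMJD1B-/- replicate 2, −0.12 without WT replicate 1 and −0.095 without WT replicate 2. Both JMJD1B-/- libraries were below both WT libraries in 3 genes (Etv3, Elk4 and Spi1) and above them in 1 gene, Erf, beside 22.7% and 20.1% of all genes. The count of 3 was 1 with median-ratio scaling, beside 22.8% of all genes. It was 5 without JMJD1B-/- replicate 1, WT replicate 1 or WT replicate 2, where the share over all genes was also higher, at 31.9% to 34.9%.

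Spi1, listed under its older name Sfpi1, had 12.2 and 12.9 RPKM in WT and 10.4 and 4.39 RPKM in JMJD1B-/- libraries. JMJD1B-/- replicate 2 was the low library. The log2 difference was −0.88 (SE 0.39, adjusted p = 0.501 with limma), and without JMJD1B-/- replicate 1 it was −1.496 (adjusted p = 0.00724 with limma), against −0.27 without JMJD1B-/- replicate 2, and the p-value again rests on the assumed spread of a lone library. Monocyte and macrophage markers, of which 6 of 8 were listed, had a summed level of 63.7 and 79.4 RPKM in WT and 71.1 and 17.2 RPKM in JMJD1B-/- libraries, with no listed marker at 0. At an unadjusted p under 0.05 with limma 2 of them, Csf1r and Ly86, were lower and 0 were higher, beside 6.33% and 3.81% of all genes. Csf1r, a macrophage growth factor receptor, had 9.22 and 7.73 RPKM in WT and 3.75 and 1.45 RPKM in JMJD1B-/- libraries, and Ly86 had 7.04 and 5.84 RPKM against 2.45 and 0.950 RPKM. Ccr2, a chemokine receptor and the largest part of each sum, overlapped between the genotypes with 36.5 and 57.0 RPKM in WT and 46.7 and 8.20 RPKM in JMJD1B-/- libraries, and Adgre1, listed as Emr1, was highest in JMJD1B-/- replicate 1 at 13.001 RPKM. Of the 6 markers, 4 were lowest in JMJD1B-/- replicate 2, the library in which Spi1 was lowest, and their part in the Spi1 values was not tested.

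Erf, a repressor that ERK signalling moves out of the nucleus, had 2.41 and 2.0003 RPKM in WT and 3.12 and 3.40 RPKM in JMJD1B-/- libraries. It was higher in both JMJD1B-/- libraries, with a log2 difference of 0.55 (adjusted p = 0.654 with limma). Elf2, a close relative of Elf1, had 43.5 and 47.9 RPKM in WT and 44.3 and 47.0 RPKM in JMJD1B-/- libraries. The interval of its log2 difference was −0.41 to 0.41. By mean level Elf1 was the first ETS gene in WT and Elf2 the first in JMJD1B-/- HSPCs, and the difference between the responses of these genes was not tested.

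Elk4, a ternary complex factor like Elk3, had 33.8 and 39.0 RPKM in WT and 32.0 and 31.4 RPKM in JMJD1B-/- libraries (log2 difference −0.20, adjusted p = 0.741 with limma; −0.30 without WT replicate 1 and −0.095 without WT replicate 2). The third such factor, Elk1, overlapped between the genotypes at 1.49 to 2.29 RPKM. Etv3, a repressor related to Erf, had 6.14 to 7.01 RPKM over all libraries. Etv5, Spib and Spic had at most 2.70 RPKM in any library, and their genotypes overlapped.

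**Figure D3:**
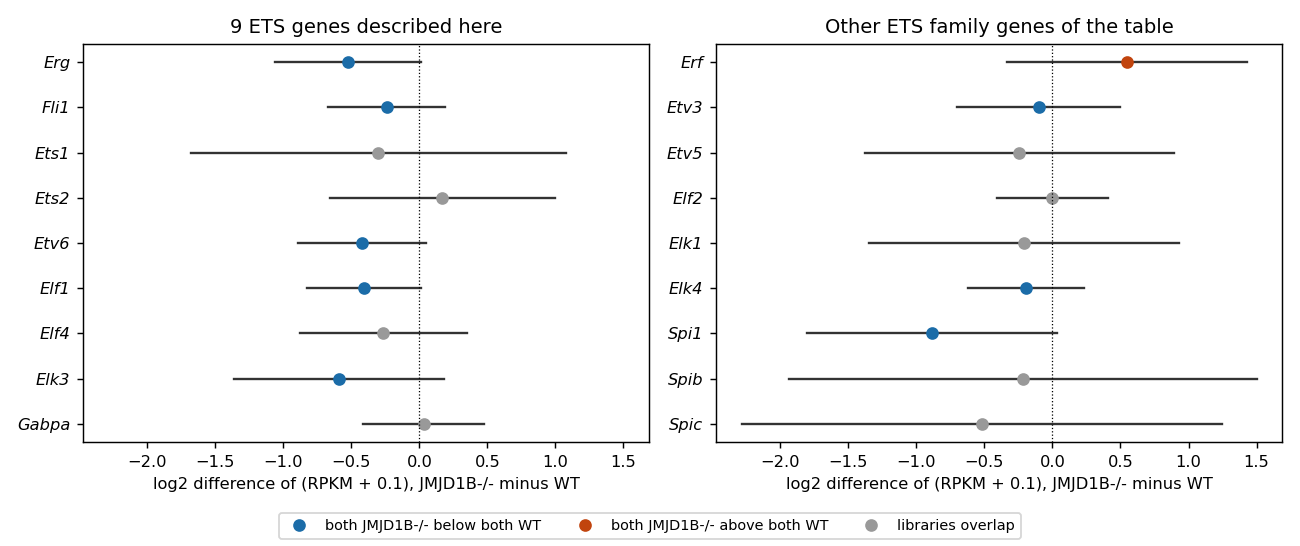
Log2 difference of (RPKM + 0.1), JMJD1B-/- minus WT, for the 9 members (left) and the other 9 ETS genes (right), with bars for limma's 95% intervals. Every interval includes 0, and colour marks genes in which the libraries of the genotypes do not overlap, 5 of the members and 4 of the others.

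Summed over the 18 listed ETS genes, the level per library was 334.1 and 328.6 RPKM in WT and 299.9 and 267.1 RPKM in JMJD1B-/- HSPCs. The sum was lower in both JMJD1B-/- libraries, at 283.5 ± 23.2 RPKM against 331.3 ± 3.88 RPKM in WT (SD, n = 2), or 85.6% of WT. With median-ratio scaling it was 86.8% of WT. The scaled sums were 330.2 and 324.7 RPKM in WT and 318.1 and 249.99 RPKM in JMJD1B-/- libraries. JMJD1B-/- replicate 1 was then near the lower WT library. The 9 members alone summed to 228.7 and 213.4 RPKM in WT and 196.7 and 170.3 RPKM in JMJD1B-/- libraries, 83.0% of the WT mean. The sums are descriptions and carry no test.

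Within the sum, Erg made up 3.76% and 3.48% in WT and 2.93% and 2.94% in JMJD1B-/- libraries. Gabpa made up 6.57% and 7.60% in WT and 7.98% and 8.95% in JMJD1B-/- libraries. Ets1 made up 5.56% and 5.65% in WT but 10.5% and 2.68% in JMJD1B-/- libraries. Erg thus had the smaller share in both JMJD1B-/- libraries and Gabpa the larger one, while the share of Ets1 went opposite ways in the 2 libraries. Fli1 overlapped between the genotypes in its share, at 12.2% to 14.0%.

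**Figure D4:**
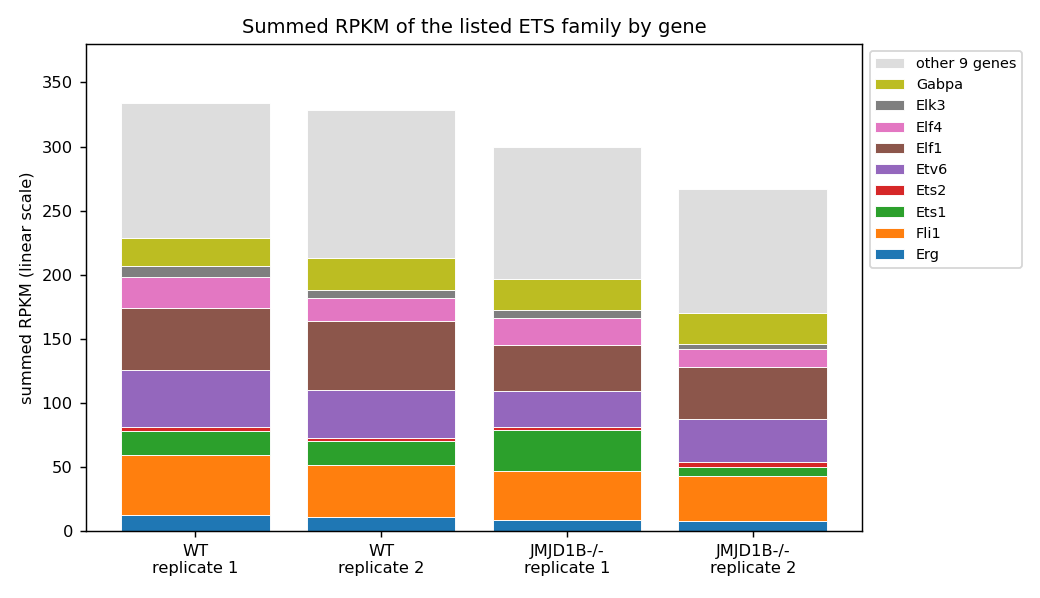
Summed RPKM of the 18 listed ETS genes in each library on a linear axis from 0, stacked by member, with the other 9 genes in grey. The total is 334.1 and 328.6 RPKM in WT and 299.9 and 267.1 RPKM in JMJD1B-/- libraries, and the Ets1 segment is the one that differs most between the JMJD1B-/- libraries.

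Partners and co-regulators of ETS factors were split in direction. Of 23 such genes 22 were listed, and 0 had an adjusted p under 0.05 with limma. At an unadjusted p under 0.05, 3 were lower (Gabpb1, Cbfb and Gata2) and 1 was higher (Gata1), beside 6.33% and 3.81% of all genes, and their median log2 difference was −0.045 with 11 negative and 11 positive. L3mbtl1 was not analysed here. Without a variance trend the counts were 1 lower and 0 higher, and the fits that left out 1 library gave 0 to 5 lower and 0 to 3 higher.

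The beta subunits of GABP took different values while Gabpa itself overlapped. Gabpb1 had 20.9 and 20.8 RPKM in WT and 11.004 and 16.0 RPKM in JMJD1B-/- libraries, low in both, with a log2 difference of −0.65 (SE 0.24, adjusted p = 0.438 with limma). Gabpb2 had 30.6 and 35.0 RPKM in WT and 37.4 RPKM in each JMJD1B-/- library, with a log2 difference of 0.19 (adjusted p = 0.747 with limma). Relative to Gabpa, the level of Gabpb1 was 0.951 and 0.835 in WT and 0.460 and 0.669 in JMJD1B-/- libraries, whereas that of Gabpb2 was 1.39 and 1.40 in WT and 1.56 in each JMJD1B-/- library.

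RUNX1 binds DNA beside ETS factors with CBFB as its partner, and GATA factors share megakaryocyte and erythroid genes with them. Cbfb had 42.8 and 40.2 RPKM in WT and 26.7 and 29.5 RPKM in JMJD1B-/- libraries (log2 difference −0.56, adjusted p = 0.394 with limma). Gata2, the GATA factor of stem and progenitor cells, had 73.3 and 52.9 RPKM in WT and 28.4 and 46.9 RPKM in JMJD1B-/- libraries (log2 difference −0.77, adjusted p = 0.435 with limma). Gata1, which takes over from Gata2 in erythroid cells, had 32.8 and 35.9 RPKM in WT and 44.5 and 63.6 RPKM in JMJD1B-/- libraries (log2 difference 0.63, adjusted p = 0.425 with limma). Gata2 was thus low and Gata1 high in both JMJD1B-/- libraries, and neither passed the adjusted test.

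Erythroid markers stood beside the Gata1 values. All 12 were listed, and 10 of them were higher at an unadjusted p under 0.05 with limma, beside 3.81% of all genes. After adjustment 0 passed, and the lowest adjusted p was 0.162 with limma. Their summed level was 549 and 846 RPKM in WT and 1576 and 2701 RPKM in JMJD1B-/- libraries, with no marker at 0. The sum includes Hba-a1 and Hba-a2 and also Hbb-b1 and Hbb-b2, near-identical copies between which reads cannot be assigned with certainty. Their part in the values of Gata1 and of the ETS members was not tested.

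Genes with ETS sites known from earlier work were read as a list of 16, of which 15 were listed and Egr2 was not analysed here. With limma, 0 passed the adjusted test, and at an unadjusted p under 0.05 4 were lower and 1 was higher, beside 6.33% and 3.81% of all genes. Their median log2 difference was −0.23, and −0.067 without JMJD1B-/- replicate 1. The 4 lower genes were Pf4, Gp6, Itga2b and Gp1ba, all of them megakaryocyte or platelet genes, and the higher one was Cox7c, a subunit of cytochrome c oxidase. Itga2b, Gp1ba and Cox7c are named because the counts are small, after their values were seen. The gene-by-gene test gave 0 lower and 0 higher, without a variance trend 2 were lower, and 1 and 2 were lower without WT replicate 1 and WT replicate 2.

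Pf4, the platelet chemokine CXCL4, had 348 and 308 RPKM in WT and 92.8 and 167 RPKM in JMJD1B-/- libraries. The JMJD1B-/- libraries were far below WT, with a log2 difference of −1.39 (SE 0.28, adjusted p = 0.203 with limma). Gp6, the collagen receptor of platelets, had 7.54 and 6.29 RPKM in WT and 1.41 and 2.91 RPKM in JMJD1B-/- libraries (log2 difference −1.71, SE 0.41, adjusted p = 0.258 with limma). Itga2b, the platelet integrin chain that binds fibrinogen together with its beta partner, had 157 and 133 RPKM in WT and 76.1 and 113 RPKM in JMJD1B-/- libraries (log2 difference −0.64, adjusted p = 0.431 with limma). These 3 genes were lowest in JMJD1B-/- replicate 1, the shallowest library, and their genotypes did not overlap. Their promoter windows, shown because ETS binding there is background knowledge, held GGAA or TTCC as marked in capitals.
Pf4, chr5:90772285-90772434, plus strand: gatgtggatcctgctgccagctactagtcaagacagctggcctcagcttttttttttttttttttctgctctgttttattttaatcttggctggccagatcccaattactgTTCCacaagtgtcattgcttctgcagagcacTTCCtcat
Gp6, chr7:4397745-4397894, minus strand: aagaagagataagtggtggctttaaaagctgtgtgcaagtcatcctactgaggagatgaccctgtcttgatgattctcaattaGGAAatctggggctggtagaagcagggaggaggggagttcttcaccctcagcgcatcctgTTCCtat
Itga2b, chr11:102469884-102470033, minus strand: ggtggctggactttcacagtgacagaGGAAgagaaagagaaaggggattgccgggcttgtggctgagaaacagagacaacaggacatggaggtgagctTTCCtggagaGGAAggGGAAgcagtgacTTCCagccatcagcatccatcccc
Gp1ba, chr11:70638972-70639121, plus strand: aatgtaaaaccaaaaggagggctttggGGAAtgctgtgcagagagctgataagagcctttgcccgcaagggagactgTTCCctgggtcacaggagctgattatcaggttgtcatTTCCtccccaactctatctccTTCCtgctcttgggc

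The windows held 2 cores for Pf4, 2 for Gp6, 5 for Itga2b and 4 for Gp1ba, and none of the 4 held CCGGAAG. Over all windows, 80.8% held GGAA on either strand, with a median of 2 cores. The window of Cox7c, the higher gene, held 3 cores. Gp1ba, a chain of the von Willebrand factor receptor, had 7.19 and 10.2 RPKM in WT and 4.198 and 6.08 RPKM in JMJD1B-/- libraries (log2 difference −0.75, adjusted p = 0.489 with limma). In contrast, Cox7c had 93.7 and 118 RPKM in WT and 150 and 192 RPKM in JMJD1B-/- libraries (log2 difference 0.69, adjusted p = 0.367 with limma). The mitochondrial genes of the list, which are known for GABP sites (Cox4i1, Cox5b, Cox7c, Tfb1m, Tfb2m and Tfam), had log2 differences from 0.08 to 0.69, while 53% of all genes were below 0. Of these mitochondrial genes, Cox7c alone had an unadjusted p under 0.05, and Cox4i1, Tfb1m, Tfb2m and Tfam overlapped between the genotypes. In JMJD1B-/- replicate 1, Cox4i1 was below both WT libraries, and Tfb1m, Tfb2m and Tfam lay between them. Only JMJD1B-/- replicate 2 was above both WT libraries for these overlapping genes.

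**Figure D5:**
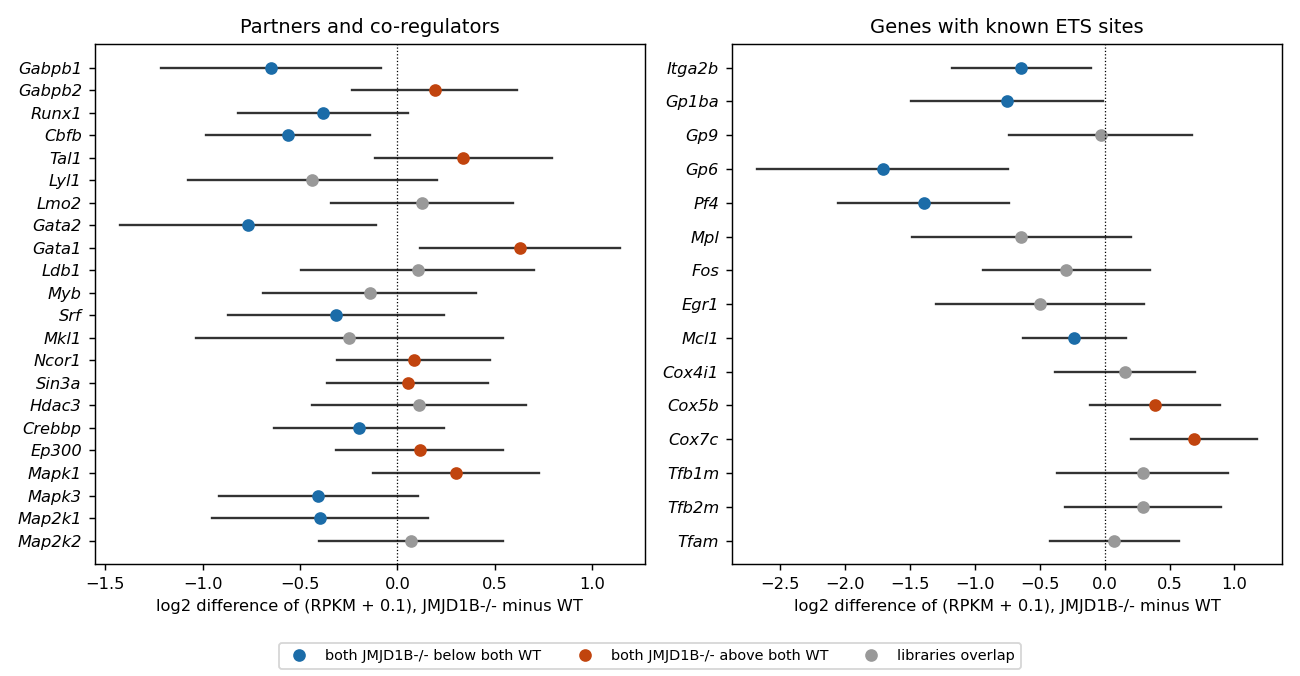
Log2 difference of (RPKM + 0.1), JMJD1B-/- minus WT, for 22 partners and co-regulators (left) and 15 genes with known ETS sites (right), with bars for limma's 95% intervals and colour for libraries that do not overlap. Among the ETS-site genes Pf4 and Gp6 lie farthest below 0 and Cox7c farthest above, and the partners spread evenly around 0.

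The platelet genes of that list are also markers, and 5 of them stand in both lists. Of 12 megakaryocyte markers, 8 were lower and 0 higher at an unadjusted p under 0.05 with limma, beside 6.33% and 3.81% of all genes, and 0 passed the adjusted test. Their summed level was 825 and 787 RPKM in WT and 334 and 465 RPKM in JMJD1B-/- libraries, with no marker at 0. Clec1b, a platelet receptor, had the lowest adjusted p of the markers, 0.064 with limma. Erg, Fli1 and Gata2 were also lower in both JMJD1B-/- libraries than in WT. Between the JMJD1B-/- libraries, the marker sum and Gata2 were lower in replicate 1, but Erg and Fli1 in replicate 2. The part of megakaryocytes in the values of Erg, Fli1 and Gata2 was not tested.

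Stem and endothelial cells also express Erg and Fli1, and their markers are given beside them. Of 8 stem and progenitor markers 4 were lower and 0 higher at an unadjusted p under 0.05 with limma. Over all genes these shares were 6.33% and 3.81%. A negative log2 difference was seen in 6 of the 8, beside 53% of all genes. The sums of the 8 were 201 and 188 RPKM in WT and 125 and 151 RPKM in JMJD1B-/- libraries. Cd34, the marker with the lowest p, had 42.9 and 43.5 RPKM in WT and 20.9 and 11.7 RPKM in JMJD1B-/- libraries, whereas Kit and Hoxa9 stood at 111.6% and 121.3% of their WT means and overlapped between the genotypes. Of 12 endothelial and stromal markers 10 were listed, without Cdh5 and Flt1, 3 were lower at an unadjusted p under 0.05, beside 6.33% of all genes, and all 10 had a negative log2 difference, beside 53% of all genes, although in 5 (Tie1, Emcn, Col1a1, Cxcl12 and Lepr) the genotypes overlapped. They summed to 62.9 and 84.5 RPKM in WT and 32.0 and 22.9 RPKM in JMJD1B-/- libraries. No listed marker of either kind was at 0, and their part in the values of Erg, Fli1, Etv6 and Elk3 was not tested.

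Neutrophil markers were lower at an unadjusted p under 0.05 in 5 and higher in 2 (S100a8 and S100a9) of the 8 that were tested, beside 6.33% and 3.81% of all genes. The 10 listed markers had sums of 274 and 186 RPKM in WT and 85.0 and 55.2 RPKM in JMJD1B-/- libraries. After adjustment 1 passed with limma, Prtn3, a granule protease, with 40.1 and 31.8 RPKM in WT and 8.90 and 7.53 RPKM in JMJD1B-/- libraries (log2 difference −2.11), while 0 of all genes were called lower gene by gene, without a variance trend or under either scaling. Camp, a granule peptide, was listed at 0 in WT replicate 2 and JMJD1B-/- replicate 1. Of 8 B cell markers only Cd79b and Blnk were listed, with sums of 3.73 and 3.42 RPKM in WT and 3.04 and 0.766 RPKM in JMJD1B-/- libraries. Their part in the values of Spi1 and Ets1 was not tested.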

How the data were processed

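Polyadenylated RNA of HSPCs (TruSeq libraries, 2 per genotype) was used. The authors deposited the RPKM of each gene in a single table, to which 1 had been added: the lowest deposited value is exactly 1, and it was subtracted. Per the labels, the processing notes name Novoalign, TopHat2 and mm9, with no role given, and the counting program and annotation are not given in the sources used here. Entries sharing a name (42 names of 12024 entries) were averaged. No gene has a maximum under 2 as deposited, so genes low in every library were not analysed here. The column of JMJD1B-/- replicate 1 carries the word cat, whose meaning is not stated.

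The authors gave no read counts. Depth was estimated from low genes whose values were whole multiples of 1 read, where 33 of 129 genes gave the same depth and at most 2 any other. It came to 17500000 and 24600000 reads in WT replicates 1 and 2 and to 6110000 and 21000000 in JMJD1B-/- replicates 1 and 2, so that 3 reads per kilobase equal 0.171, 0.122, 0.491 and 0.143 RPKM. These floors cover counting error only.

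After removal of genes whose mean RPKM was under 0.5, log2(RPKM + 0.1) was compared by limma 3.58.1 under R 4.3.3, with a variance trend, two-sided, no replicate term and Benjamini-Hochberg adjustment over 11863 genes. The scale understates changes of low genes. Other steps used Python 3.11.15, numpy 2.4.6, pandas 2.3.3 and matplotlib 3.10.9.

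The genes named were the members, the other listed ETS genes, Kdm3b, and from each other list those at an unadjusted p under 0.05 or, where there were none or more than 4, those with the 2 lowest. Of these, marker genes are given by their sums where no result turned on them. Others, such as Xist, Kit and Ly6a, were named after their values were seen. Members and lists were chosen with earlier results of these data known. Alternatives were pseudocounts of 1 and 0.01, no filter, a filter at 1 RPKM, median-ratio scaling, quantile normalization, no variance trend, a gene-by-gene equal-variance test, a replicate block and leaving out each library.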

Additional observations from a re-analysis of the deposited data

How the results depend on the processing

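Over alternatives with all 4 libraries, the log2 difference was −0.53 to −0.48 for Erg, −0.29 to −0.23 for Fli1, −0.46 to −0.41 for Etv6, −0.45 to −0.40 for Elf1 and −0.60 to −0.49 for Elk3, and leaving out a library kept these below 0. Members lower at an unadjusted p under 0.05, 0 with limma, were 1 gene by gene, 2 with median-ratio scaling (Elf1 and Etv6), 2 with quantile normalization and 0 to 4 without 1 library (4 without JMJD1B-/- replicate 1 and 2 without JMJD1B-/- replicate 2, beside 1309 and 1819 of 11863 genes). After adjustment 0 to 1 were lower without 1 library, Ets1 without JMJD1B-/- replicate 1, and at an unadjusted p 0 to 1 were higher, Ets1 without JMJD1B-/- replicate 2. The non-overlapping count of 5 was 3 with either scaling and 5 to 7 without 1 library, where the share of all genes was 31.9% to 49%. The 49% stands without JMJD1B-/- replicate 2, where the count was 5. The members' median was −0.35 to −0.18 without 1 library.

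Without 1 library the log2 difference ran from −1.37 to 0.77 for Ets1 and from −0.54 to 0.0084 for Elf4, above 0 without JMJD1B-/- replicate 2 alone, and from −0.061 to 0.12 for Gabpa, below 0 without WT replicate 1 alone. It ran from −0.59 to 0.11 for Etv5, −0.070 to 0.068 for Elf2, −0.51 to 0.085 for Elk1 and −1.23 to 0.79 for Spib. With quantile normalization it was 0.012 for Etv5, 0.040 for Elk1 and 0.14 for Spib, and with median-ratio scaling 0.011 for Elf2, each against a negative value in the fit reported. The cause was not tested.

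The labels do not say whether the replicate numbers pair the libraries. The deviations of the replicates 1 from their group means had r = −0.0543 over 11863 genes. A correlation with 2 libraries per genotype cannot settle the pairing. With the replicate block, 2 members (Elf1 and Etv6) and 1 other ETS gene were lower at an unadjusted p under 0.05, 2 ETS-site genes were higher, and over all genes 914 were lower and 571 higher. After adjustment 173 were lower and 83 higher.

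Other ETS genes lower at an unadjusted p ranged from 0 to 1 without 1 library. Partners were lower in 1 and higher in 0 without a trend, and without 1 library lower in 0 to 5, higher in 0 to 3, with a median of −0.17 to 0.067, above 0 without JMJD1B-/- replicate 1. ETS-site genes were lower in 0 and higher in 0 gene by gene, lower in 2 without a trend, and without 1 library lower in 1 to 6 and higher in 0 to 4. Over all genes, 751 were lower and 452 higher at an unadjusted p. These counts were 714 and 671 with quantile normalization, 747 and 632 with median-ratio scaling and 512 and 348 gene by gene. Without 1 library these were 177 to 1819 lower and 123 to 1258 higher. After adjustment 4 were lower and 1 higher with limma. Lower calls numbered 0 gene by gene, without a trend and under either scaling, 2 at a mean RPKM of at least 1, 2 with a pseudocount of 0.01, 15 with a pseudocount of 1 and 0 to 523 without 1 library. Higher calls numbered 0 gene by gene and without a trend, 3 with a pseudocount of 1 and 0 to 147 without 1 library. Kdm3b was −2.65 gene by gene and without a trend, −2.63 with median-ratio scaling, −2.60 with quantile normalization and −2.82 to −2.47 without 1 library.

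Precision was limited by 2 libraries per genotype and by 6110000 reads in 1 of them, and the standard errors of the members were 0.179 to 0.588 on the log2 scale.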
